A study of Mus musculus with 16 samples.

Results

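The Nr4a nuclear receptors (Nr4a1, Nr4a2, Nr4a3), the Egr transcription factors (Egr1, Egr2, Egr3) and the Nab corepressors (Nab1, Nab2) were followed in mouse splenic B cells across 4 diets. The genes were taken by symbol from a table of read counts: 8 rows of 39179 carried these names, 1 for each gene. All 8 were among the 15021 genes that passed the filter on low counts. The rule used gene names and no measured value. However, the genes, and the gene lists used further on, were chosen with earlier results of these data known. Counts of called genes among them are therefore not an independent test.

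The donors of the B cells were NOD.LT mice, a line of the non-obese diabetic strain in which autoimmune diabetes arises spontaneously. Mice were 15 weeks old and had eaten their diet for the last 5 weeks. The diets were HAMSA, HAMSB, HAMS and NP, with 4 libraries each. In this field HAMS stands for high-amylose maize starch, a fibre that gut bacteria ferment, HAMSA for the same starch carrying acetate and HAMSB for the starch carrying butyrate. NP was the diet set beside them, and the feeding protocol names Gordons in its place. Cells were enriched by a negative magnetic selection, so other spleen cells can remain. The labels give each library a number (HAMSA 1, 2, 3 and 6, HAMSB 1, 2, 5 and 6, HAMS 1, 4, 5 and 6, NP 1, 3, 4 and 5). They do not tie a number to an animal, and they speak both of 4 samples a diet and of triplicates. P-values here therefore rest on the spread among the libraries of a diet, which may be partly technical.

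Nr4a and Egr genes belong to the immediate early genes, which are transcribed within minutes of a stimulus without new protein synthesis. In B cells, ligation of the antigen receptor switches them on, the Egr genes mainly through ERK and the serum response factor, and the Nr4a genes through calcium, MEF2 and the cAMP response element (CRE) that CREB binds. NR4A receptors are orphan receptors whose activity follows their amount, and in lymphocytes chronic antigen raises them and they restrain the response. EGR proteins are zinc finger activators, and NAB1 and NAB2 bind them and turn activation into repression. Nab2 is itself an Egr target in other cells, which closes a negative feedback loop.

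The promoters of the Nr4a genes, Nab2 and Egr2 are shown first, because the Nr4a genes share a feature there that Nab2 lacks. Each sequence is the RefSeq window from 250 bases before to 50 bases after the annotated start (GRCm38.p6), 5′ to 3′ on the gene's strand, and capitals mark the CRE half-site TGACG on either strand (CGTCA on the other). The windows are chr15:101266596-101266895 (plus strand) for Nr4a1, chr2:57123954-57124253 (minus strand) for Nr4a2, chr4:48045055-48045354 (plus strand) for Nr4a3, chr10:127666654-127666953 (minus strand) for Nab2 and chr10:67537619-67537918 (plus strand) for the third of 5 starts of Egr2.
Nr4a1: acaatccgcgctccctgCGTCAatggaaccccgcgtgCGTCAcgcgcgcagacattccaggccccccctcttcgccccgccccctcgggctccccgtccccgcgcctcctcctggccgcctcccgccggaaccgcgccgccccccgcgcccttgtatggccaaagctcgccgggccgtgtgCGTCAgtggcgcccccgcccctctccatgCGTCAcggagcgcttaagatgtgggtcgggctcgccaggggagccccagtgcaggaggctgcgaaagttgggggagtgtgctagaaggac
Nr4a2: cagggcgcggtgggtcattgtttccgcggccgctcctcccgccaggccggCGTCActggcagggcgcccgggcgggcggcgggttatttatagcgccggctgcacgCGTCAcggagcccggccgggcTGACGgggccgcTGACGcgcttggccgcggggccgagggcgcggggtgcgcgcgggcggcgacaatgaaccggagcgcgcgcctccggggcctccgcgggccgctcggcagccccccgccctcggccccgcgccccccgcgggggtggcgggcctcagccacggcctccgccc
Nr4a3: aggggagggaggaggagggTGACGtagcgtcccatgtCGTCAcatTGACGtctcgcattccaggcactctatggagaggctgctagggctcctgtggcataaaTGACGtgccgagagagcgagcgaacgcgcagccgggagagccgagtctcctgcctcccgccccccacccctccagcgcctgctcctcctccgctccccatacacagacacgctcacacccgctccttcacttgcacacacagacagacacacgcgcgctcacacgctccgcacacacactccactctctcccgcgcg
Nab2: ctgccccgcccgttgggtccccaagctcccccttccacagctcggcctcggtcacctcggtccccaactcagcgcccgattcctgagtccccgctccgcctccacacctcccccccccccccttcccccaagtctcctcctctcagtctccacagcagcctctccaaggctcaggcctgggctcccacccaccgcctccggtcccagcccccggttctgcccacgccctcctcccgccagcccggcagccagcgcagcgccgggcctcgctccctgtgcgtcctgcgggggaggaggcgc
Egr2: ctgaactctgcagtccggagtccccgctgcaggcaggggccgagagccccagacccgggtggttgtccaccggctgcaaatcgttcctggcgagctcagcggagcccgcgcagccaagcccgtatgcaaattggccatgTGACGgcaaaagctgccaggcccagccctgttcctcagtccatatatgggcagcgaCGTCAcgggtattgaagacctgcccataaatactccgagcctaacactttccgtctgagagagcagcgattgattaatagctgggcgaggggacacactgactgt

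Each of the 3 Nr4a windows held 4 CRE half-sites. At least 1 half-site was present in 20.8% of 32851 RefSeq mouse promoter windows of this length, and at least 4 in 0.231%. The Nab2 window held none of the motifs searched, which were the CRE half-site, the full CRE TGACGTCA, the Egr site (GCGGGGGCG or GCGTGGGCG), the Nr4a monomer site AAAGGTCA, TATAAA and the serum response factor's CArG box. The printed Egr2 window held 2 half-sites and a CArG box, which is the element by which serum response factor drives Egr genes and which was present in 1.63% of all windows. The windows at the first and second Egr2 starts held 0 half-sites, and the Nab1 window held 1. The Nr4a1 window held 1 Egr site and the Nab1 window 3, while 3.47% of all windows held at least 1. The full CRE, which contains the half-site on both strands, was in none of the windows printed. The matches are letters and not measured binding, and windows of 6 of the 8 genes were searched. The Nab2 and Nr4a1 windows lie wholly inside the gene spans given below. Sequence at the outermost annotated start of these genes was therefore not searched, and Nab2 may hold motifs there.

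The gene counts summed to between 15053965 and 30723337 in HAMSA libraries, 34720317 and 46206200 in HAMSB libraries, 31826691 and 37929476 in HAMS libraries, and 31707731 and 42752976 in NP libraries, so HAMSA values rest on the fewest reads. B cell identity was checked with 6 markers (Ms4a1, Cd79a, Cd79b, Pax5, Cr2, Fcer2a), whose summed level was 8529 to 9498 CPM (read counts scaled to library size by TMM) in HAMSA, 7723 to 9755 in HAMSB, 7825 to 9639.6 in HAMS and 8417 to 9876 in NP. The diets overlapped in this sum, and 0 of the 6 markers passed the test in any comparison, where 0% to 4.33% of all genes were called. Markers of other cells were also present, at levels that differed. The summed level of 13 macrophage and monocyte markers was 226 to 397 CPM in HAMSA, 153 to 427 in HAMSB, 124 to 255 in HAMS and 216 to 506 in NP. The 12 T cell markers summed to 134 to 294 CPM in HAMSA, 111 to 366 in HAMSB, 75.2 to 183 in HAMS and 81.6 to 119 in NP, and the 11 erythroid markers to 576 to 6479 in HAMSA, 56.1 to 1586 in HAMSB, 40.5 to 129 in HAMS and 87.0 to 1486 in NP. The 9 platelet and megakaryocyte markers summed to 309 to 534 CPM in HAMSA, 222 to 493 in HAMSB, 372 to 769.8 in HAMS and 253 to 412 in NP, and 0 of them passed in any comparison. The 12 neutrophil markers summed to 88.5 to 352 CPM in HAMSA, 51.3 to 296 in HAMSB, 8.09 to 121 in HAMS and 12.1 to 75.4 in NP, so that HAMSA and NP did not overlap. No marker was at 0 in all libraries of all diets.

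Between pairs of diets, Nr4a1, Nr4a3 and Nab2 were the members that passed the test. In HAMSB against HAMS, 3 of the 8 genes fell and 0 rose, where 1.68% of all genes were called in either direction. In HAMS against NP, 3 of the 8 rose and 0 fell, against 4.33% of all genes called. In HAMSA against NP, 1 of the 8 (Nab2) rose, against 1.41% of all genes. No member passed in HAMSB against NP (0.0732% of all genes called) or in HAMSA against HAMSB (0.779% of all genes). In HAMSA against HAMS, 0 of the 8 members and 0% of all genes passed edgeR's quasi-likelihood test, with 4 members and 1751 genes at an unadjusted p under 0.05. DESeq2 called 103 genes in that comparison, among them Nr4a1 and Nr4a3. Asked for any difference among the 4 diets, the test called 3 members, Nr4a1 (adjusted p = 0.0011), Nab2 (adjusted p = 0.0011) and Nr4a3 (adjusted p = 0.00581), against 3.78% of all genes. These comparisons share libraries, HAMS being on one side of 3 of them and NP on one side of 3, so their counts are not separate pieces of evidence. In a bulk sample, fewer cells that express a gene and less of its RNA in each cell cannot be told apart.

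**Figure D1:**
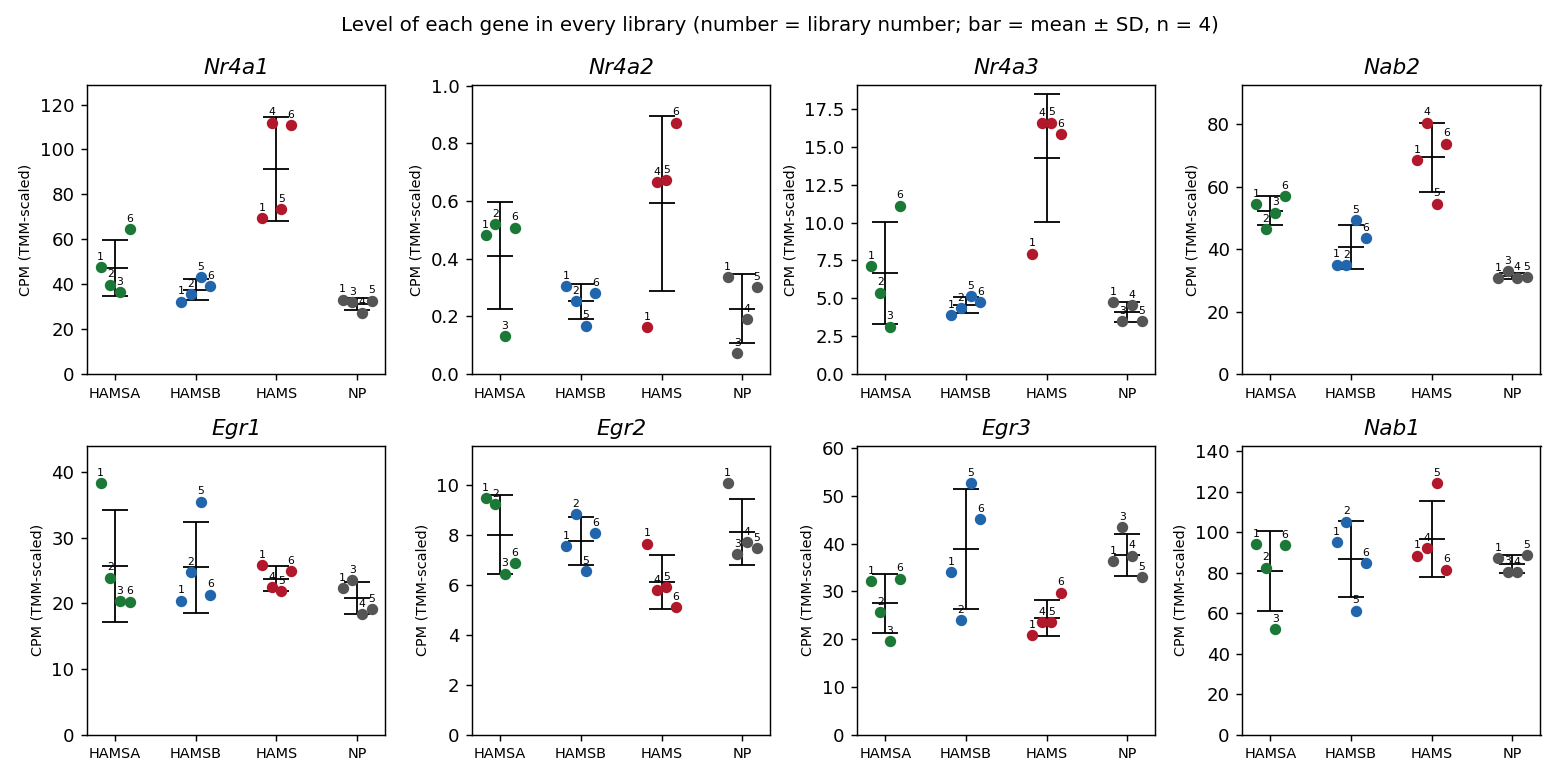
Level of the 8 genes in each library in CPM (TMM-scaled, linear axis from 0), with 1 point for each library, its label number above it, and bars for the mean and SD of the 4 libraries of a diet. Nr4a1 and Nab2 sat highest in all 4 HAMS libraries against HAMSB and NP, Egr3 lay lower in all 4 HAMS libraries than in all 4 NP libraries, and Egr1 and Nab1 overlapped between all diets.

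Per kilobase of exon, so that genes of different length can be set side by side, the most abundant of the receptors was Nr4a1. It averaged 13.4 ± 3.59 CPM per kb in HAMSA, 10.7 ± 1.33 in HAMSB, 26.1 ± 6.60 in HAMS and 8.94 ± 0.771 in NP (SD, n = 4 each). Nr4a3 averaged 1.12 ± 0.564 CPM per kb in HAMSA, 0.758 ± 0.0894 in HAMSB, 2.38 ± 0.703 in HAMS and 0.681 ± 0.112 in NP. Nr4a2 was the scarcest gene, with a highest value of 0.215 CPM per kb in a HAMS library and 2 to 27 reads in a library. Nr4a1 made up 92.0 ± 2.02% of the family's summed level per kb in HAMSA, 92.9 ± 0.213% in HAMSB, 91.1 ± 2.46% in HAMS and 92.3 ± 1.52% in NP. The share of Nr4a1 among the receptors thus overlapped between the diets, while its level in HAMS stood apart.

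Among the other families, Nab1 and Nab2 stood at 21.2 ± 3.94 and 16.5 ± 5.40 CPM per kb over the 16 libraries (SD, n = 16), Egr3 at 7.29 ± 2.12, Egr1 at 5.34 ± 1.23 and Egr2 at 2.21 ± 0.411. The corepressors were therefore more abundant per length than each factor they bind. The order of Nab1 over Nab2 held in NP, where Nab2 was 34.3 ± 1.64% of the summed Nab level per kb. In HAMSA it was 48.1 ± 6.66%, in HAMSB 40.03 ± 9.55% and in HAMS 50.2 ± 8.27%, so that in HAMS the 2 corepressors stood level within their spread. Over the 16 libraries the coefficient of variation was 66.0% for Nr4a3, 61.4% for Nr4a2, 52.2% for Nr4a1, 32.8% for Nab2, 29.1% for Egr3, 22.9% for Egr1, 18.6% for Egr2 and 18.6% for Nab1.

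Nr4a1 (also Nur77, the receptor whose reporter mice are used to read antigen receptor signalling in lymphocytes; ENSMUSG00000023034, chromosome 15, 101254269 to 101274795, plus strand) was the member with the largest counts among the receptors. It had 47.7, 39.8, 36.6 and 64.7 CPM in HAMSA libraries 1, 2, 3 and 6, 32.3, 35.7, 43.1 and 39.3 in HAMSB 1, 2, 5 and 6, 69.4, 111.9, 73.4 and 111.0 in HAMS 1, 4, 5 and 6, and 33.2, 32.2, 27.4 and 32.8 in NP 1, 3, 4 and 5. All 4 HAMS libraries stood above all libraries of the other diets, HAMSA stood above NP without overlap, and HAMSB overlapped both HAMSA and NP. HAMSB was below HAMS by a log2 fold change of -1.28 ± 0.19 (SE; 0.411 of the HAMS level; adjusted p = 0.00223, edgeR quasi-likelihood test, Benjamini-Hochberg over 15021 genes). HAMS was above NP by 1.54 ± 0.19 (2.91-fold; adjusted p = 0.000762), the sixth smallest p of all genes. HAMSA was below HAMS by -0.95 ± 0.18 without passing (adjusted p = 0.3), although 2 genes only had a smaller p. Against NP, HAMSA stood at 0.59 ± 0.18 (adjusted p = 0.0876) and HAMSB at 0.26 ± 0.18 (adjusted p = 0.92; unadjusted 95% interval -0.13 to 0.65). HAMSA against HAMSB gave 0.33 ± 0.18 (adjusted p = 0.313). The order of the means was HAMS, HAMSA, HAMSB, NP. No neighbours in this order differed at the adjusted threshold, while HAMS differed from HAMSB and from NP.

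Nr4a3 (Nor1, the receptor that acts in parallel with Nr4a1 in T cells; ENSMUSG00000028341, chromosome 4, 48045153 to 48086447, plus strand) followed the same order at a lower level. Its values were 7.10, 5.37, 3.13 and 11.1 CPM in HAMSA 1, 2, 3 and 6, 3.89, 4.36, 5.13 and 4.77 in HAMSB 1, 2, 5 and 6, 7.95, 16.6, 16.6 and 15.9 in HAMS 1, 4, 5 and 6, and 4.76, 3.51, 4.55 and 3.50 in NP 1, 3, 4 and 5. The HAMS libraries lay above all HAMSB and NP libraries, but HAMSA 6 exceeded HAMS 1, and HAMSA spanned the range of the low diets up to that of HAMS. HAMSB fell against HAMS by a log2 fold change of -1.65 ± 0.30 (adjusted p = 0.00943). HAMS rose against NP by 1.80 ± 0.31 (3.49-fold; adjusted p = 0.00442). HAMSA stood at -1.09 ± 0.30 against HAMS (adjusted p = 0.3), 0.72 ± 0.31 against NP (adjusted p = 0.168) and 0.56 ± 0.30 against HAMSB (adjusted p = 0.303). None of these 3 passed edgeR's test. HAMSB against NP gave 0.16 ± 0.30 (adjusted p = 0.999).

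Nr4a2 (Nurr1, best known in dopamine neurons; ENSMUSG00000026826, chromosome 2, 57106830 to 57124003, minus strand) had the same highest diet, but no difference was detectable at this depth. It averaged 0.411 ± 0.186 CPM in HAMSA, 0.252 ± 0.0596 in HAMSB, 0.593 ± 0.303 in HAMS and 0.226 ± 0.119 in NP (SD, n = 4 each). HAMS against NP gave a log2 fold change of 1.38 ± 0.51 (adjusted p = 0.148) and HAMSB against HAMS -1.21 ± 0.50 (adjusted p = 0.285). All pairs of diets overlapped, with HAMS 1 (6 reads) within the range of the NP libraries.

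Nab2, the inducible NAB corepressor (ENSMUSG00000025402, chromosome 10, 127660918 to 127668568, minus strand), varied least within HAMSA, HAMS and NP of the 3 members that passed. Within HAMSB it varied most (coefficient of variation 17.1%, against 12.4% for Nr4a1 and 11.8% for Nr4a3). In the annotation, 3 genes on the opposite strand share exon bases with it (Gm16229, Nemp1 and Stat6). Counting was set to the strand of the library, and reads that the authors' counting left unassigned between genes are not in its values. Its level was 54.5, 46.3, 51.7 and 56.9 CPM in HAMSA 1, 2, 3 and 6, 35.1, 35.0, 49.2 and 43.5 in HAMSB 1, 2, 5 and 6, 68.6, 80.5, 54.6 and 73.8 in HAMS 1, 4, 5 and 6, and 30.8, 32.9, 30.9 and 31.2 in NP 1, 3, 4 and 5. The NP libraries lay together below every library of the other diets, the HAMS libraries lay above all of HAMSB, and HAMSA overlapped both HAMSB and HAMS. HAMSB fell against HAMS by -0.77 ± 0.13 on the log2 scale (adjusted p = 0.0049) and HAMS rose against NP by 1.14 ± 0.13 (2.21-fold; adjusted p = 0.000483, the fourth smallest p of all genes). HAMSA rose against NP by 0.74 ± 0.13 (1.67-fold; adjusted p = 0.0211). This last call did not hold without HAMSA 1, HAMSA 2, NP 3, NP 4 or NP 5, with an adjusted p of up to 0.106 without NP 4, while the log2 fold change kept between 0.69 and 0.79 over all 8 omissions. HAMSB against NP gave 0.37 ± 0.13 (adjusted p = 0.437), HAMSA against HAMSB 0.36 ± 0.13 (adjusted p = 0.172) and HAMSA against HAMS -0.41 ± 0.13 (adjusted p = 0.316), none of which passed.

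**Figure D2:**
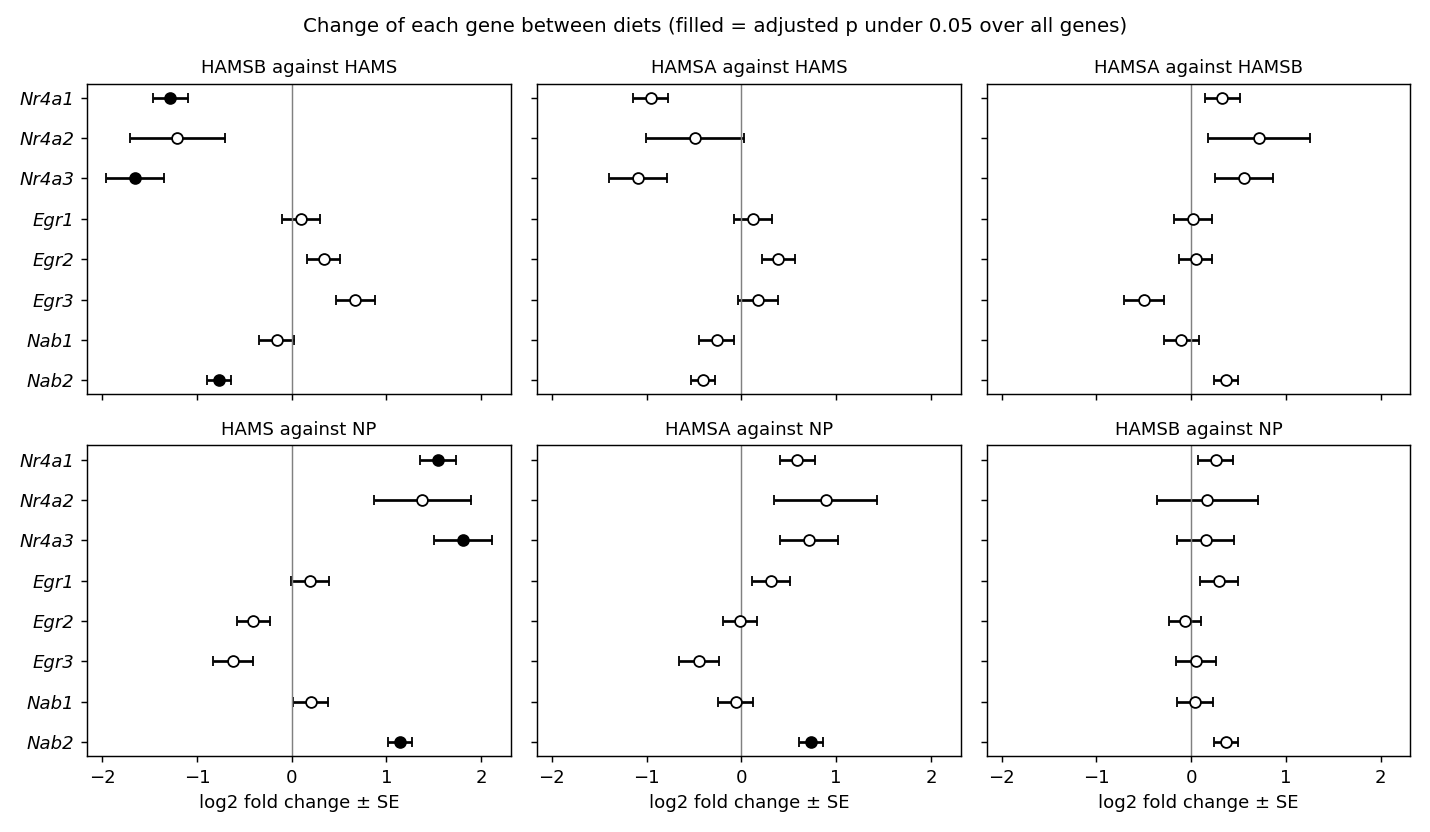
Log2 fold change of each gene, named diet first, with its standard error, in the 6 comparisons of diets; filled points had an adjusted p under 0.05 over all 15021 genes. Nr4a1, Nr4a3 and Nab2 were filled to the left in HAMSB against HAMS and to the right in HAMS against NP, Nab2 alone was filled in HAMSA against NP, and the Egr genes were open throughout.

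Nab1, the other corepressor of the family (ENSMUSG00000002881, chromosome 1, 52457294 to 52500679, minus strand), passed in no comparison. Its level was 52.1 to 94.1 CPM in HAMSA, 61.3 to 105.2 in HAMSB, 81.5 to 124.0 in HAMS and 80.1 to 88.6 in NP. All diets overlapped, and the 6 log2 fold changes ran between -0.26 ± 0.19 (HAMSA against HAMS) and 0.20 ± 0.19 (HAMS against NP), with adjusted p-values of 0.529 and above. The unadjusted 95% interval for HAMS against NP was -0.19 to 0.59, which does not contain the change of Nab2.

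Egr1, the early response factor that is usually the first of the family to appear after a stimulus (ENSMUSG00000038418), did not pass in any comparison. It had 38.3, 23.9, 20.4 and 20.3 CPM in HAMSA 1, 2, 3 and 6, 20.4, 24.8, 35.5 and 21.4 in HAMSB 1, 2, 5 and 6, 25.9, 22.5, 21.9 and 24.9 in HAMS 1, 4, 5 and 6, and 22.3, 23.5, 18.4 and 19.1 in NP 1, 3, 4 and 5. HAMSA 1 and HAMSB 5 were high within their diets, and the rest of the libraries lay in one range. HAMS against NP gave a log2 fold change of 0.19 ± 0.20 (adjusted p = 0.635; unadjusted 95% interval -0.23 to 0.62), and HAMSB against HAMS gave 0.10 ± 0.20 (adjusted p = 0.865; -0.32 to 0.52). Both intervals leave out the change of Nr4a1 in the same comparison.

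Egr2, which with Egr3 limits lymphocyte activation in mice (ENSMUSG00000037868, chromosome 10, 67535475 to 67542188, plus strand), had its lowest mean in HAMS. It averaged 8.01 ± 1.57 CPM in HAMSA, 7.76 ± 0.952 in HAMSB, 6.12 ± 1.09 in HAMS and 8.12 ± 1.31 in NP (SD, n = 4 each). HAMS against NP gave -0.41 ± 0.17 (adjusted p = 0.216), HAMSB against HAMS 0.34 ± 0.17 (adjusted p = 0.407) and HAMSA against HAMS 0.39 ± 0.18 (adjusted p = 0.417). The libraries overlapped in each of these, and none passed.

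Egr3, which in T cells responds to calcium and NFAT as well as to ERK (ENSMUSG00000033730, chromosome 14, 70077203 to 70082614, plus strand), had its lowest mean in HAMS, where Nr4a1 had its highest. There were 32.1, 25.7, 19.6 and 32.7 CPM in HAMSA 1, 2, 3 and 6, 34.0, 23.9, 52.6 and 45.2 in HAMSB 1, 2, 5 and 6, 20.9, 23.5, 23.5 and 29.8 in HAMS 1, 4, 5 and 6, and 36.4, 43.4, 37.5 and 32.9 in NP 1, 3, 4 and 5. Both HAMSA and HAMS lay below NP without overlap, whereas HAMSB was widely spread and overlapped the other 3 diets. HAMS against NP gave a log2 fold change of -0.62 ± 0.21 (0.65 of the NP level; adjusted p = 0.112; unadjusted 95% interval -1.06 to -0.18). HAMSB against HAMS gave 0.67 ± 0.21 (adjusted p = 0.143), HAMSA against NP -0.45 ± 0.21 (adjusted p = 0.199) and HAMSA against HAMSB -0.50 ± 0.21 (adjusted p = 0.227). Egr3 thus passed in no comparison, but it did in HAMS against NP when only those diets were fitted (adjusted p = 0.0301), only libraries numbered 1 to 4 (adjusted p = 0.0371) or a block of numbers 1 to 4 against 5 and 6 (adjusted p = 0.0325). It also passed in HAMSA against NP with libraries numbered 1 to 4 alone (adjusted p = 0.045), and in HAMSB against HAMS when HAMSB 2 was left out. For any difference among the 4 diets, Egr3 did not pass edgeR's test (adjusted p = 0.126). It did so with DESeq2, with the same block, and when HAMSB 2 was left out. Its share of the summed Egr level per kb was 43.8 ± 6.33% in HAMSA, 51.7 ± 8.18% in HAMSB, 43.7 ± 4.86% in HAMS and 54.8 ± 3.01% in NP, and that of Egr1 was 39.6 ± 5.67% in HAMSA, 34.0 ± 5.84% in HAMSB, 41.9 ± 2.22% in HAMS and 29.8 ± 1.51% in NP.

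The log2 ratios of 3 pairs of members within a library were compared between the diets, in 18 exact two-sided permutation tests whose smallest possible p for 4 against 4 is 0.0286. Nr4a1 to Egr1 averaged 0.892 ± 0.568 in HAMSA, 0.585 ± 0.252 in HAMSB, 1.91 ± 0.404 in HAMS and 0.595 ± 0.134 in NP (log2 of the counts, SD, n = 4 each). It was separated in HAMS against NP and in HAMSB against HAMS (exact p = 0.0286 each, adjusted p = 0.0857). Egr1 to Nab2 was -1.53 ± 0.231 in HAMS and -0.601 ± 0.147 in NP, and Nab1 to Nab2 was 0.472 ± 0.484 in HAMS and 1.42 ± 0.105 in NP, each with the same exact p and adjusted p. Of the 18 tests, 6 had this smallest p and 0 passed 0.05 after adjustment. A ratio of Nr4a1 to Egr3 was added after its values were seen and is a description. There were 1.48 to 1.98 reads of Nr4a1 for each read of Egr3 in HAMSA, 0.82 to 1.49 in HAMSB, 3.12 to 4.76 in HAMS and 0.73 to 0.994 in NP. In HAMS libraries every ratio exceeded those of all other diets, and HAMSA and NP did not overlap either. The ratio of Nab2 to Egr3 was 1.70 to 2.63 in HAMSA, 0.936 to 1.46 in HAMSB, 2.32 to 3.42 in HAMS and 0.758 to 0.946 in NP.

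**Figure D3:**
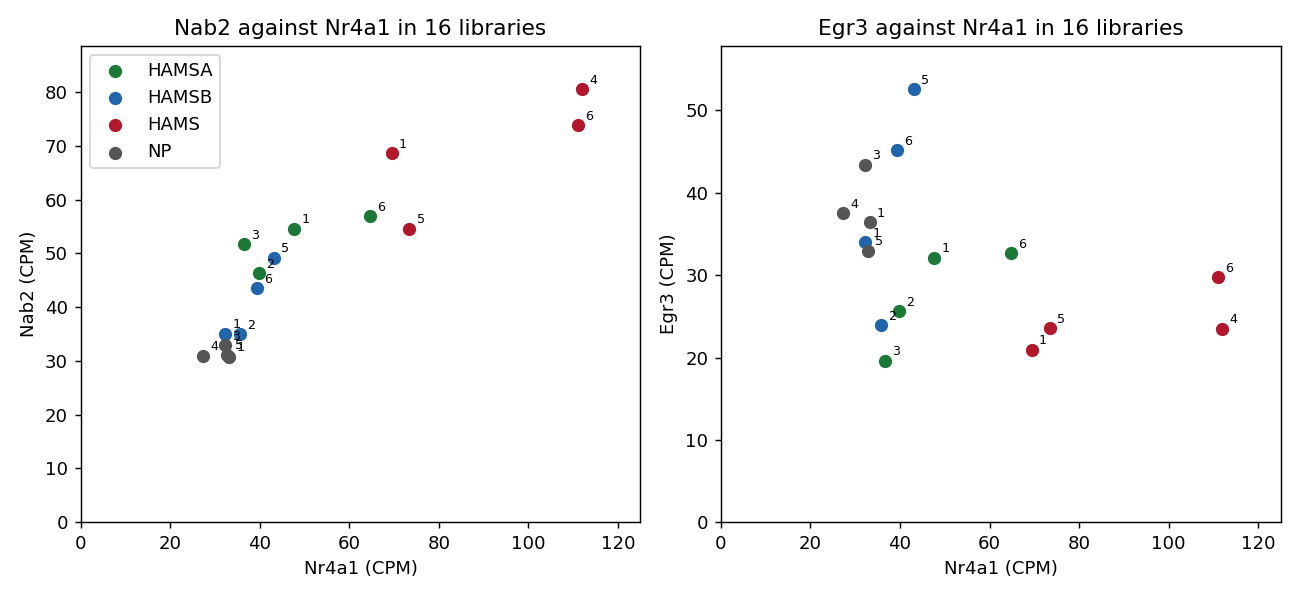
Level of Nab2 (left) and Egr3 (right) against that of Nr4a1 in the 16 libraries, all in CPM on linear axes from 0, colored by diet and numbered as in the labels. In the left panel the libraries run from NP at 30.8 to 32.9 CPM of Nab2 up to HAMS at 54.6 to 80.5, and in the right panel the HAMS libraries lie to the right of and below the NP libraries.

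The other genes of the pathway were read from lists. The list of early response genes holds 20 genes that respond to the same stimuli (AP-1 subunits, Ier genes, dual-specificity phosphatases that switch MAP kinases off, and others), and 19 passed the filter. In HAMSB against HAMS 7 of the 19 fell and 0 rose (1.68% of all genes called), with a median log2 fold change of -0.40 against 0.01 over all genes. In HAMS against NP 7 rose and 0 fell (4.33% of all genes called), with a median of 0.71 against 0.01. The phosphatase gene Dusp1 stood at 11.03 ± 1.81 CPM in HAMSB and 53.0 ± 10.7 in HAMS (log2 fold change -2.27 ± 0.25, adjusted p = 0.000312), with 14.7 ± 3.98 in NP (HAMS against NP 1.85 ± 0.25, adjusted p = 0.00132). Ier2, a short-lived nuclear protein gene, gave -0.98 ± 0.12 in HAMSB against HAMS (adjusted p = 0.000485) and 1.21 ± 0.12 in HAMS against NP (adjusted p = 0.000335). Dusp2 and Dusp5 also fell in HAMSB against HAMS (-0.74 ± 0.10, adjusted p = 0.00164, and -1.53 ± 0.23, adjusted p = 0.00272), and the antiproliferative Btg2 and the activation antigen gene Cd69 rose in HAMS against NP (0.73 ± 0.10, adjusted p = 0.00132, and 1.16 ± 0.16, adjusted p = 0.00144).

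HAMSA had 8 of the 19 early response genes higher than NP and 0 lower (1.41% of all genes called; median 0.60 against 0.00 over all genes). In the same comparison Nr4a1 stood at 0.59 ± 0.18, near this median, and did not pass edgeR's test (adjusted p = 0.0876). It passed with DESeq2 (adjusted p = 0.0394) and with a block of numbers 1 to 4 against 5 and 6 (adjusted p = 0.0431). Without NP 4, and likewise with a replicate block, 0 of the 19 and 0 of all genes passed, and without HAMSA 2 or NP 5 1 of the 19 did. Ier2 rose by 0.95 ± 0.12 (adjusted p = 0.00787), the AP-1 gene Junb by 0.84 ± 0.13 (adjusted p = 0.0197), Dusp2 by 0.60 ± 0.10 (adjusted p = 0.0211) and Ier5 by 0.42 ± 0.08 (adjusted p = 0.0357). Without NP 4 these 4 calls were lost, Ier2 with an adjusted p of 0.076. Junb was also lost without NP 5 or HAMSA 2, Dusp2 without NP 3, NP 5, HAMSA 1 or HAMSA 2, and Ier5 without these and HAMSA 3. Against HAMSB, HAMSA had 5 of the 19 higher and 0 lower (0.779% of all genes called; 0 of the 19 when only those diets were fitted), led by Ier5 (0.60 ± 0.08, adjusted p = 0.00798), Ier2 (0.73 ± 0.12, adjusted p = 0.0149), Dusp2 (0.62 ± 0.10, adjusted p = 0.0155) and Junb (0.71 ± 0.12, adjusted p = 0.0187), of which Dusp2 was lost without HAMSA 2, HAMSA 3 or HAMSB 5 and Junb without HAMSA 2, HAMSB 1 or HAMSB 6. In HAMSA against HAMS and in HAMSB against NP 0 of the 19 passed edgeR's test, where 0% and 0.0732% of all genes were called.

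For the route from the B cell receptor to these factors, the RNA of 34 genes of receptor, ERK, calcium and CREB signalling was compared. All of them passed the filter. The activity of the route was not measured, and RNA levels of its parts cannot tell whether it was engaged. In HAMSB against HAMS 0 of the 34 rose and 1 fell, where 1.68% of all genes were called. In HAMS against NP 2 rose and 1 fell, where 4.33% of all genes were called. In the other 4 comparisons 0 passed edgeR's test. Few genes of any kind were called there: 0% in HAMSA against HAMS, 0.779% in HAMSA against HAMSB, 1.41% in HAMSA against NP and 0.0732% in HAMSB against NP. The calcineurin subunit Ppp3ca rose in HAMS against NP (0.79 ± 0.13, adjusted p = 0.00413) and fell in HAMSB against HAMS (-0.59 ± 0.13, adjusted p = 0.0307, lost in 6 of 8 omissions of a library). Mef2d, a factor that binds the Nr4a1 promoter in T cells, rose (0.60 ± 0.15, adjusted p = 0.0384) and Nfatc1 fell (-0.31 ± 0.08, adjusted p = 0.0426) in HAMS against NP, calls that were lost in 7 and 8 of 8 omissions.

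Of 10 genes listed as cAMP and CREB targets, 9 were in the table and passed the filter. In HAMSB against HAMS 2 fell and 0 rose (median -0.77; 1.68% of all genes called), and in HAMS against NP 3 rose and 0 fell (median 0.46; 4.33% of all genes called). Crem, which encodes CREB-family activators and repressors, stood at 14.7 ± 2.23 CPM in HAMSB and 63.0 ± 26.1 in HAMS (-2.10 ± 0.31, adjusted p = 0.00272), with 13.1 ± 2.12 in NP (HAMS against NP 2.26 ± 0.32, adjusted p = 0.00139). The kinase gene Sik1 gave -2.70 ± 0.31 in HAMSB against HAMS (adjusted p = 0.000356), 1.61 ± 0.30 in HAMS against NP (adjusted p = 0.00682) and 1.499 ± 0.30 in HAMSA against HAMSB (adjusted p = 0.0273, lost in 5 of 8 omissions). The clock gene Per1 rose in HAMS against NP (0.73 ± 0.20, adjusted p = 0.0493, lost in 7 of 8 omissions).

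**Figure D4:**
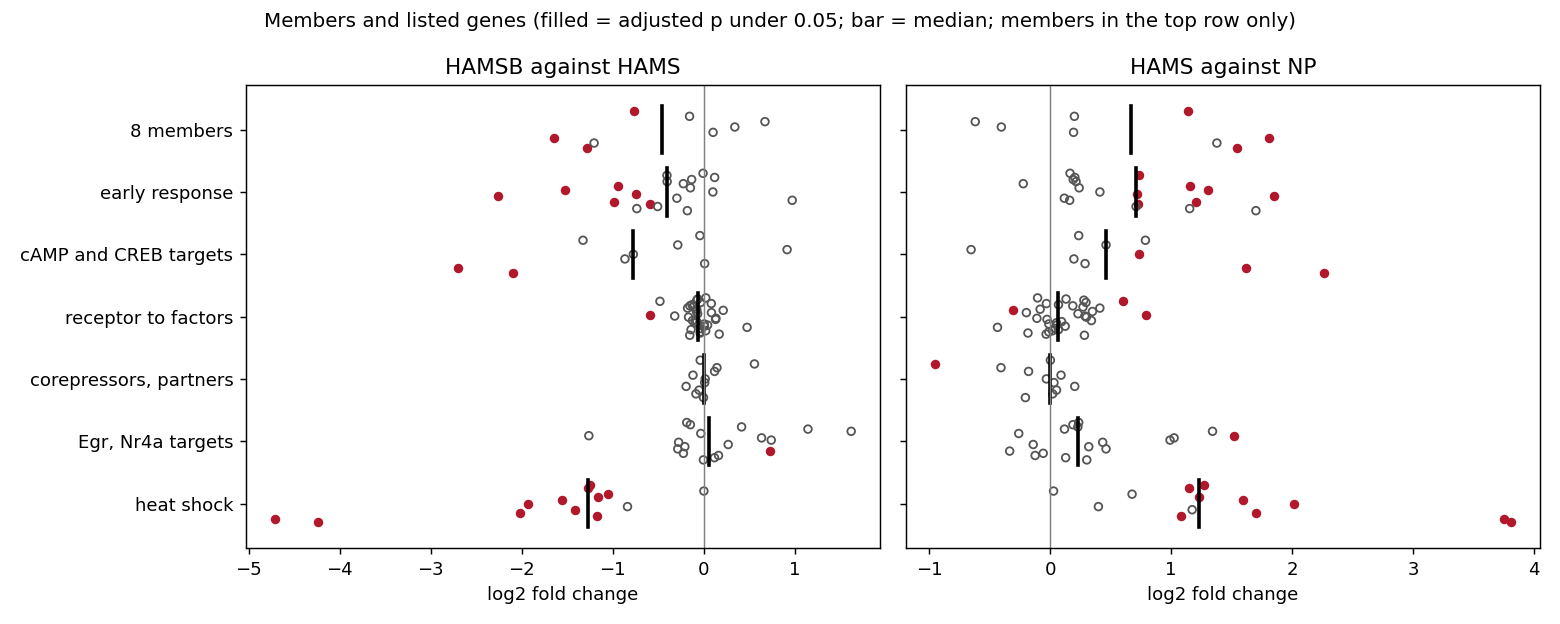
Log2 fold change of the 8 members (top row) and of the listed genes other than members, in HAMSB against HAMS (left) and HAMS against NP (right), with 1 point for each gene, filled where the adjusted p over all genes was under 0.05, and a bar at the median. The medians of the early response, cAMP and heat shock rows lie to the left of 0 in HAMSB against HAMS and to the right in HAMS against NP, while that of the receptor pathway is -0.07 in HAMSB against HAMS and 0.07 in HAMS against NP.

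Among 18 genes described elsewhere as Egr or Nr4a targets, 1 passed edgeR's test in each of 3 comparisons, where 1.68% (HAMSB against HAMS), 4.33% (HAMS against NP) and 1.41% (HAMSA against NP) of all genes were called. In the others 0 passed, where 0% (HAMSA against HAMS), 0.779% (HAMSA against HAMSB) and 0.0732% (HAMSB against NP) of all genes were called. Id3, an inhibitor of E proteins, was 107 ± 10.3 CPM in HAMSB and 64.3 ± 12.8 in HAMS (0.73 ± 0.17, adjusted p = 0.0447, lost in 7 of 8 omissions). The costimulatory ligand gene Tnfsf9 was 5.54 ± 1.66 CPM in HAMS and 1.93 ± 0.396 in NP (1.52 ± 0.32, adjusted p = 0.0144, lost in 4 of 8 omissions), and the chemokine gene Ccl3 was 0.782 ± 0.499 CPM in HAMSA and 0.104 ± 0.106 in NP (2.97 ± 0.70, adjusted p = 0.0481, lost in 6 of 8 omissions). The partners of the 2 families (the NuRD subunits that NAB proteins recruit, other corepressors and the retinoid receptors that pair with NR4A receptors) make a list of 13 that includes Nab1 and Nab2. Apart from Nab2, the gene of it that passed was Rxra, at 4.00 ± 0.985 CPM in HAMS and 7.78 ± 2.34 in NP (-0.96 ± 0.26, adjusted p = 0.0493, lost in 7 of 8 omissions). Chd4, Hdac1, Hdac2 and the other listed subunits did not pass in any comparison.

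Heat shock genes, whose products refold proteins, were high in the libraries that were high in the Nr4a genes. In HAMSB against HAMS 11 of 13 fell and 0 rose (median -1.27; 1.68% of all genes called), and in HAMS against NP 10 of 13 rose and 0 fell (median 1.23; 4.33% of all genes called). With 1 library left out, 4 to 12 of the 13 fell in HAMSB against HAMS, the fewest without HAMS 4, and 4 to 10 rose in HAMS against NP, the fewest without NP 3 or NP 4. The chaperone gene Dnaja1 gave -1.93 ± 0.31 in HAMSB against HAMS (adjusted p = 0.00447) and 2.02 ± 0.31 in HAMS against NP (adjusted p = 0.00244). Hspd1, the mitochondrial HSP60, gave -1.16 ± 0.19 in HAMSB against HAMS (adjusted p = 0.00451) and 1.23 ± 0.19 in HAMS against NP (adjusted p = 0.00221). The mean level of the 13 genes was 6.44, 5.90, 5.46 and 7.34 log2 CPM in HAMSA 1, 2, 3 and 6, 5.49, 5.41, 5.24 and 5.46 in HAMSB 1, 2, 5 and 6, 6.45, 7.56, 6.95 and 7.22 in HAMS 1, 4, 5 and 6, and 5.88, 5.39, 5.52 and 5.59 in NP 1, 3, 4 and 5. HAMSA 6, the HAMSA library with the most Nr4a1 and Nr4a3, was the highest of its diet here, and HAMS 1, with the least Nr4a1 and Nr4a3 of its diet, was the lowest of HAMS. Beside this, 12 of 13 macrophage and monocyte markers were lower in HAMS than in NP, and 7 of them passed the test (4.33% of all genes called). An example is C1qc (2.27 ± 1.22 CPM in HAMS and 15.8 ± 3.48 CPM in NP). The 9 platelet and megakaryocyte markers had a median summed level of 617 CPM in HAMS and 367 in NP. Most of this sum was Itgb3, at 417 ± 137 CPM in HAMS and 210 ± 19.6 in NP (0.99 ± 0.28, adjusted p = 0.0545). Of the 9 markers, 8 were higher in HAMS than in NP and 1 was lower, with a median log2 fold change of 0.33, and 0 passed. Of the 12 T cell markers, 11 were higher in HAMS than in NP and 1 was lower, with a median of 1.56, and 0 passed. Cd3e, for example, was 3.71 ± 3.55 CPM in HAMS and 1.20 ± 1.37 in NP. The part of these sets in the values of Nr4a1, Nr4a3 and Nab2 was not tested.

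The genes whose log2 CPM was most like that of a member over the 16 libraries were searched among 10311 genes. The points share their library, its depth and its diet, so the coefficients describe a pattern and are no test. Nr4a1 was most like Itprip (Pearson r = 0.969, Spearman rho = 0.912), Ankrd37 (r = 0.965, rho = 0.944), Tpm4 (r = 0.965, rho = 0.929), Tgif1 (r = 0.962, rho = 0.909) and Tnfrsf13c, the BAFF receptor (r = 0.96, rho = 0.856). With each diet's mean taken away, r for these 5 was 0.807 to 0.903. Nr4a3 was most like Scd1, a fatty acid desaturase (r = 0.98, rho = 0.918), Chordc1, an HSP90 partner on the heat shock list (r = 0.965, rho = 0.879), and Erlin1 (r = 0.963, rho = 0.835). Nab2 was most like the replication licensing gene Cdt1 (r = 0.973, rho = 0.947), Ier2 (r = 0.956, rho = 0.947) and Lbh (r = 0.947, rho = 0.932). The nearest genes of the Egr family were others. Egr1 was most like Tnf (r = 0.854, rho = 0.674), Fos (r = 0.816, rho = 0.806) and Fam76a (r = 0.727, rho = 0.709), Egr3 most like Nfic (r = 0.932, rho = 0.947), Inppl1 (r = 0.932, rho = 0.959) and Zfp217 (r = 0.926, rho = 0.894), and Egr2 most like Rab11fip4 (r = 0.857, rho = 0.788), Rap1gap2 (r = 0.843, rho = 0.847) and Evi2a (r = 0.842, rho = 0.815). For Nab1 they were Echdc1 (r = 0.919, rho = 0.782), Ak3 (r = 0.895, rho = 0.835) and Chmp2b (r = 0.887, rho = 0.8), and for the sparse Nr4a2, where a weak pattern cannot be read, Utp18 (r = 0.868, rho = 0.871), Errfi1 (r = 0.848, rho = 0.868) and Ywhaq (r = 0.846, rho = 0.874). Ranked by Spearman's rho, 1 of the 5 genes named for Nr4a1, 0 of 3 for Nr4a3 and 2 of 3 for Nab2 would have been named again. For Nr4a2 it was 3 of 3, for Egr1, Egr2 and Egr3 1 of 3 each, and for Nab1 0 of 3. The order among near neighbours thus depends on the measure for most members.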

How the data were processed

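Stranded poly(A) libraries of negatively selected B cells were sequenced, 4 for each of 4 diets. The authors deposited a table of raw read counts for each gene and library, made for reverse-stranded libraries. Per the submitters' processing notes, STAR, featureCounts of Subread, edgeR and limma were used. Their versions, the genome build and the annotation are not given in the sources used here. Counts leave out reads that the authors' counting did not assign to 1 gene, which lowers genes with near copies such as Hspa1a and Hspa1b.

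The counts were fitted with edgeR 4.0.16 (R 4.3.3): filterByExpr at a minimum count of 10 kept 15021 genes, followed by TMM scaling, 1 mean per diet over 16 libraries (12 residual degrees of freedom), quasi-likelihood F-tests and Benjamini-Hochberg adjustment over all genes at 0.05. CPM are counts scaled to the TMM-adjusted library size. The SE of a log2 fold change comes from the model. Ratios of members used counts + 0.5. Exon lengths, positions and transcripts come from GENCODE M21 (37693 of 39179 identifiers matched), which may not be the authors' annotation, and promoters from RefSeq (GRCm38.p6). The steps were tested on simulated data. The members, gene lists and settings were chosen with earlier results of these data known, and 1 listed gene is not reported here. All 8 members were named in each comparison, with up to 4 passing genes of a list with the smallest p, and the 3 genes (5 for Nr4a1) with the highest Pearson r of log2 CPM (prior count 2, average log2 CPM of at least 1).

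Alternatives were DESeq2 1.42.0, limma 3.58.1 voom, RLE scaling, library totals, other count filters, fits of 2 diets only, immunoglobulin and erythroid genes left out, replicate blocks, libraries numbered 1 to 4 or 5 and 6 alone, a covariate for reads that fell outside exons, and each library left out.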

Additional observations from a re-analysis of the deposited data

Results flagged for a closer look

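The 32 groups of 4 libraries (8 genes in 4 diets) were searched for a library that stands apart from the other 3 of its diet, by the gap to its nearest neighbour over the range of the group (Dixon's test at the 95% level). Chance gives such a flag in about 1 of 20 groups, and 3 of the 32 were found. Nr4a2 was 0.133 CPM in HAMSA 3, against 0.482 to 0.52 CPM in the other HAMSA libraries, on 2 reads. Nr4a3 was 7.95 CPM in HAMS 1, against 15.9 to 16.6 CPM in the other HAMS libraries. Without HAMS 1 the calls of Nr4a3 in HAMSB against HAMS and in HAMS against NP were kept. Egr2 was 10.1 CPM in NP 1, against 7.23 to 7.72 CPM in the other NP libraries.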

How the results depend on the processing

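Nr4a1, Nr4a3 and Nab2 passed in HAMSB against HAMS and in HAMS against NP in all 8 omissions of 1 library. HAMSA libraries had the fewest counts. Libraries numbered 5 and 6 alone gave 1 called member in each of these 2 comparisons (Nr4a3), where NP and HAMSA have 1 library each that is assumed to vary like the other diets. There Nr4a1 stood at -1.17 in HAMSB against HAMS (adjusted p = 0.0678) and 1.49 in HAMS against NP (adjusted p = 0.0872), and Nab2 at -0.47 in HAMSB against HAMS (adjusted p = 0.278) and 1.03 in HAMS against NP (adjusted p = 0.112). Numbers 1 to 4 alone did not call Nr4a3 in HAMSB against HAMS (-1.57, adjusted p = 0.0963), nor did a fit of those 2 diets call Nab2 (-0.77, adjusted p = 0.0611), where all libraries gave -1.65 and -0.77. The count of called members in HAMSA against HAMS was 2 with DESeq2 and 0 to 1 with 1 library left out (Nr4a1 without HAMSA 6). In HAMSA against NP it was 2 with DESeq2, with a block of numbers 1 to 4 against 5 and 6 and within numbers 1 to 4, 0 within numbers 5 and 6 and with a covariate for reads outside exons, and 0 to 1 with 1 library left out. Same-numbered libraries of different diets did not all deviate together (r from -0.25 to 0.491 over 15 pairs). Pairs with different numbers reached -0.436 (HAMS 1 with HAMSA 6) and 0.49 (HAMS 6 with HAMSB 5). The 2 kinds of pair were not tested against each other, so whether the numbers mark pairs or a batch is not settled. Between HAMS and HAMSB, r was positive for all pairs within numbers 1 to 4 or within 5 and 6 (0.0671 to 0.49). It was negative for all HAMS and HAMSB pairs across these blocks (-0.409 to -0.136). HAMSA 1 did not follow this split (-0.25 with HAMS 1 and 0.347 with HAMS 6). The split was not tested. A replicate block called 0 members in HAMSA against NP and the same 3 members in HAMSB against HAMS and in HAMS against NP. Genes called overall with edgeR and DESeq2 were 252 and 603 in HAMSB against HAMS, 0 and 103 in HAMSA against HAMS, 117 and 600 in HAMSA against HAMSB, 650 and 1264 in HAMS against NP, 212 and 1295 in HAMSA against NP, 11 and 124 in HAMSB against NP and 568 and 1894 for any difference; over all settings they ran over 74 to 603, 0 to 103, 0 to 600, 37 to 1264, 0 to 2694, 0 to 124 and 259 to 1894 in the same order. Of 1002 recomputed log2 fold changes of members, 45 turned sign, in 13 values of which none passed in any setting, and the cause was not tested. In HAMSB against HAMS, Egr1 was -0.10 and Nab1 0.14 within numbers 1 to 4, and Egr1 ran from -0.10 to 0.19 with 1 library left out. In HAMSA against HAMS, Egr1 was -0.20 within numbers 5 and 6 (-0.15 to 0.21 with 1 library left out). In HAMSA against HAMSB, Egr1 was -0.014 with library totals, -0.0036 without immunoglobulin and erythroid genes and -0.48 within numbers 5 and 6 (-0.25 to 0.22), Egr2 was -0.0081 with the 1 to 4 block, -0.091 within numbers 5 and 6 and -0.16 with the covariate (-0.045 to 0.13), and Nab1 was 0.36 within numbers 5 and 6 (-0.24 to 0.0503). In HAMSA against NP, Egr2 was 0.022 with limma voom and 0.023 within numbers 1 to 4 (-0.11 to 0.10), and Nab1 0.076 within numbers 5 and 6 (-0.15 to 0.083). In HAMSB against NP, the replicate block gave Nr4a2 -0.27, Nr4a3 -0.025 and Nab1 -0.16, numbers 5 and 6 alone gave Nr4a2 -0.41 and Nab1 -0.29, numbers 1 to 4 alone gave Nr4a3 -0.055 and Egr3 -0.44, and Egr3 was -0.00707 with limma voom, -0.076 with the 1 to 4 block and -0.034 with the covariate. With 1 library left out, the values in HAMSB against NP ran from -0.13 to 0.41 for Nr4a2, -0.13 to 0.0538 for Egr2, -0.13 to 0.23 for Egr3 and -0.065 to 0.18 for Nab1.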
